A study of Homo sapiens with 6 samples.

Results

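The genes described here are 39 components of the endoplasmic reticulum (ER) that fold, translocate, degrade or export proteins, measured in A375 cells treated with cucurbitacin B (CuB) or with its solvent control, DMSO. They were picked out by a list of gene symbols, drawn up with earlier results of these data known, and each symbol matched 1 of the 58735 rows of the expression table. They fall into 10 chaperones and cofactors, 6 disulfide isomerases and oxidases, 11 factors of ER-associated degradation (ERAD), 7 translocation genes and 5 genes of export, retrieval and ER-phagy. A375 is an established human melanoma cell line that carries an activating BRAF mutation, and cucurbitacin B is a plant triterpenoid of the cucumber family.

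The study holds 2 groups of 3 polyA RNA libraries, one of A375 cells given DMSO for 6 h and one given CuB for 6 h. The labels disagree on the dose: the protocol gives 0.2 µM CuB, whereas the library names give 100 nM. Nothing in the labels says that the 3 libraries of a group came from separate cultures, so the p-values measure only the spread between these libraries, which may be technical. The series title places ER stress among the processes under study, and the comparison of CuB with DMSO shows how the transcripts of this machinery differed at a single early time.

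Proteins that enter the ER pass through the SEC61 channel, are folded with the help of BiP, calnexin and disulfide isomerases, and leave in COPII vesicles. Proteins that fail to fold are recognised by lectins and mannosidases, moved back across the membrane and degraded by the proteasome, which is ERAD. When unfolded proteins accumulate, the sensors ATF6, IRE1 and PERK start the unfolded protein response, and many genes of this machinery are textbook targets of ATF6 and of the IRE1 product XBP1. Those factors act through the ER stress response element (ERSE), its shorter relative ERSE-II and the unfolded protein response element (UPRE).

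Promoter sequences were available from RefSeq (GRCh38.p14) for 34 of the 39 genes, as windows from 250 bases before to 50 bases after each annotated start. PDIA3, SEC24D, DERL1, DERL3 and KDELR2 had no entry. The ERSE, searched on both strands as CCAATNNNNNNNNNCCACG, lay in the windows of 6 members (HSPA5, HSP90B1, CANX, CRELD2, PDIA6 and ERO1B), whereas 0.0916% of the 27305 genes with a promoter window held it. The ERSE-II, searched as ATTGGNCCACG, lay in those of 3 members (HYOU1, SDF2L1 and HERPUD1) against 0.0696% of genes with a window. The UPRE core TGACGTGG was found in 3 members (HYOU1, SEC62 and KDELR3) against 0.927% of those genes, and in HYOU1 it overlapped an ERSE-II match. Many of the 39 genes are textbook targets of the factors that act through these elements. The counts beside the shares over all genes therefore describe the list and are no test. A letter match describes these windows and says nothing of binding. The stretches below are written 5′ to 3′ on the strand of each gene, with the matched letters in capitals. The first 3 belong to genes that passed the test, HSPA5 and HERPUD1 higher and ERO1B lower with CuB. The last 4 belong to genes that did not pass it, which does not show that a response was absent. Of the members with an ERSE or ERSE-II, CANX (log2 fold change 0.20), HYOU1 (0.27) and PDIA6 (-0.01) are not shown and did not pass either.
HSPA5, ERSE, chr9:125241381-125241419, minus strand: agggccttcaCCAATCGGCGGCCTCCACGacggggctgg
HERPUD1, reverse complement of a CARE (TGATGNAA) and ERSE-II, chr16:56931956-56932045, plus strand: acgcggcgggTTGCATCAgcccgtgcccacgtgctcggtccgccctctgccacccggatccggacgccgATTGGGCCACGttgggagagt
ERO1B, ERSE in reverse, chr1:236282173-236282208, minus strand: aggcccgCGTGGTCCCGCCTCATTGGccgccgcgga
HSP90B1, distal ERSE, chr12:103930211-103930239, plus strand: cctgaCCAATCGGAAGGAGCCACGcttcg
HSP90B1, proximal ERSE in reverse, chr12:103930316-103930344, plus strand: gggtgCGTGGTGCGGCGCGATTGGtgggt
CRELD2, ERSE in reverse, chr22:49918544-49918582, plus strand: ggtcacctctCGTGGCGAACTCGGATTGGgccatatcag
SDF2L1, ERSE-II in reverse, chr22:21642104-21642134, plus strand: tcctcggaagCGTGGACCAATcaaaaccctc

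The CARE, the C/EBP-ATF response element bound by ATF4 and its partners, was found in 2 members, HERPUD1 and SRPRB, and in 4.46% of genes with a promoter window. The palindromic CRE, TGACGTCA, was in 0 members and in 2.25% of those genes. Of the 6 members with an ERSE, HSPA5 was higher and ERO1B lower with CuB, and HSP90B1, CANX, CRELD2 and PDIA6 did not pass the test. Of the 3 with an ERSE-II, HERPUD1 was higher and HYOU1 and SDF2L1 did not pass.

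Levels are FPKM, fragments scaled by gene length and by library size, so they are relative to the other RNA of a library, and fewer cells and less RNA per cell cannot be told apart. The 6 libraries held 14845976 to 16137093 fragments. Melanoma markers gave a mixed check of the label. SOX10 lay between 162 and 256 FPKM in the 6 libraries and MITF between 3.42 and 5.17, and neither passed the limma test described below. S100B lay at 24.6 to 27.6 FPKM with DMSO and 6.51 to 6.82 with CuB (adjusted p = 1.27e-05), whereas MLANA, PMEL, TYR and DCT averaged under 1 FPKM. The summed level of the dedifferentiation markers AXL and NGFR was 28.9 to 37.0 FPKM with DMSO and 86.8 to 108 with CuB, and its part in the results was not tested. Fibroblast markers (5 of 5) and endothelial markers (3 of 3) averaged under 1 FPKM, as did 4 of 5 immune markers. Of 4 keratinocyte markers, KRT1 and KRT5 were at or near 0, whereas KRT10 rose from 17.2 ± 3.13 to 24.7 ± 0.958 FPKM (adjusted p = 0.0179) and KRT14 from 1.04 ± 0.263 to 2.14 ± 0.602 (adjusted p = 0.0337). The summed keratinocyte level was 16.0 to 22.1 FPKM with DMSO and 25.9 to 28.4 with CuB, and its part in the results was not tested. The libraries of both groups spread along transcript GC content. Across all tested genes, the deviation from the group mean correlated with GC content most in DMSO replicate 2, at r = 0.723. The values were -0.391 and -0.578 in DMSO replicates 1 and 3, and -0.540, 0.129 and 0.514 in CuB replicates 1, 2 and 3.

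The test was limma's moderated test on log2(FPKM + 1) over the 13273 genes that averaged at least 1 FPKM, with Benjamini-Hochberg adjustment over all of them and a threshold of 0.05. Of the 39 members, 38 entered it. Fold changes are differences on that log2 scale, CuB minus DMSO, and understate the change of genes with low FPKM.

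With CuB, 5 members rose (HERPUD1, SEC24D, HSPA5, SELENOS and SRPRB), 3 fell (ERO1B, KDELR3 and EDEM3), and 30 did not pass the test. The 8 calls are 21.1% of the tested members, beside 38.6% of all tested genes, of which 22.9% were called higher and 15.6% lower. At least 2-fold calls numbered 2 among the members, HERPUD1 upward and ERO1B downward, beside 7.24% of all tested genes. The 3 CuB values lay wholly to one side of the 3 DMSO values for 13 members, 8 higher and 5 lower, where 51.5% of all tested genes did so. The median absolute log2 fold change was 0.18 over the 38 members and 0.30 over all tested genes, and the signed medians were -0.01 and 0.05. The members' share of calls lay below the background in this test, but that depended on both the scaling and the filter. With equal fragment totals 39.5% of the members and 38.8% of all tested genes were called, and with quantile normalization 39.5% and 35.8%. Under the deposited scaling with no filter on low values the shares were 15.4% and 14.1%. The differences of 2-fold or more were those of HERPUD1 and ERO1B.

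**Figure D1:**
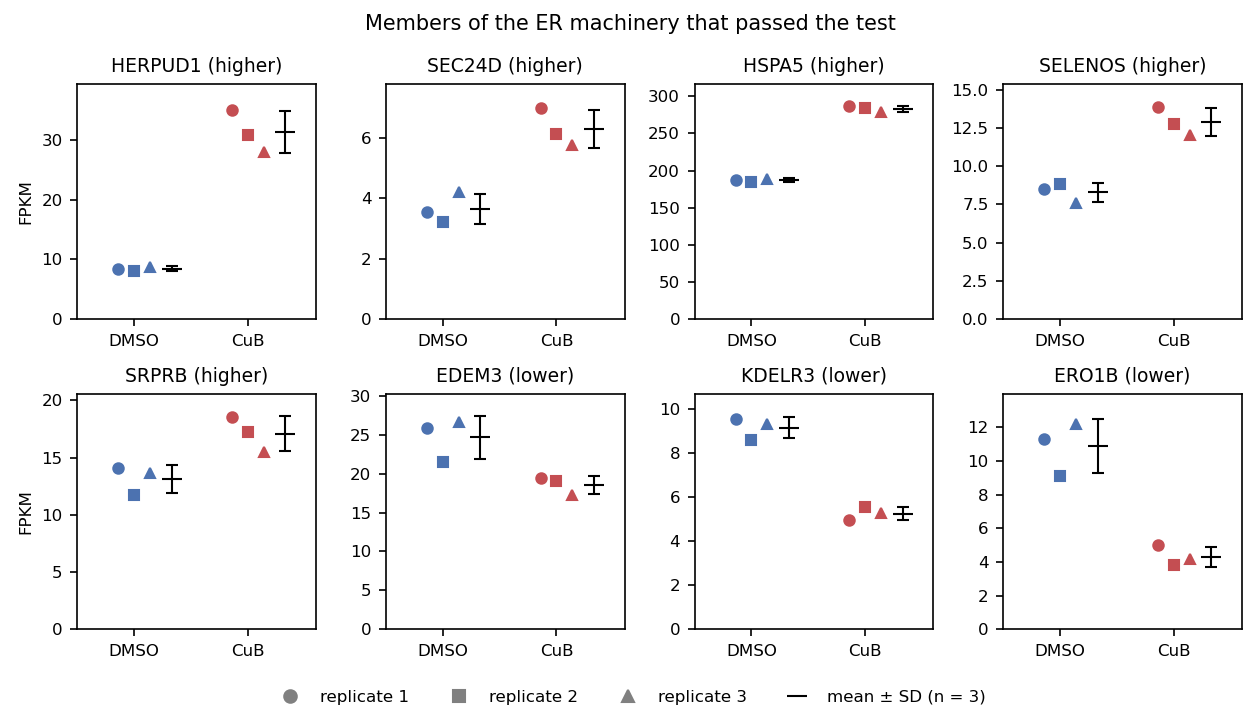
FPKM of the 8 members that passed the test, 1 panel a gene, with 1 point per library and the mean ± SD (n = 3) beside each group; every axis starts at 0. In each panel the CuB points lie on one side of the DMSO points, with HERPUD1 going from a mean of 8.44 to 31.3 FPKM and ERO1B from 10.9 to 4.31.

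Among the chaperones, HSPA5, which encodes BiP, the main Hsp70 of the ER lumen and the regulator that holds the stress sensors inactive, was the 1 of 10 that passed. HSPA5 (ENSG00000044574, chromosome 9, 125234853 to 125241330, minus strand) stood at 187.85, 184.98 and 189.27 FPKM in DMSO replicates 1 to 3 and at 286.88, 283.69 and 278.62 in CuB replicates 1 to 3. The CuB libraries were all higher, and the gap was many times the spread within either group. The mean rose from 187.4 ± 2.19 to 283.1 ± 4.16 FPKM (SD, n = 3 each), or 0.59 on the log2 scale (SE 0.0564, adjusted p = 0.00036). With that rise HSPA5 passed HSP90B1 as the highest of the 39 genes by mean FPKM, a rank that depends on the gene lengths used.

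HSP90B1 encodes GRP94, the Hsp90 of the ER lumen. Its FPKM was 256.37, 215.04 and 274.41 with DMSO and 241.4, 215.17 and 208.34 with CuB. The groups overlapped, and the log2 fold change of -0.16 did not pass (95% interval -0.41 to 0.09, adjusted p = 0.277). The lowest DMSO value was that of replicate 2.

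The other chaperones and cofactors had small differences. CANX, the membrane lectin calnexin, measured 132.31, 115.14 and 134.65 FPKM with DMSO and 158.15, 142.76 and 138.23 with CuB. Its groups did not overlap, but its log2 fold change of 0.20 did not pass (adjusted p = 0.122). HYOU1, the nucleotide exchange factor GRP170 that serves BiP, overlapped at 36.33 to 47.08 FPKM with DMSO and 44.05 to 54.22 with CuB (log2 fold change 0.27, adjusted p = 0.121). DNAJB11, a J-domain cochaperone of BiP, did not overlap, at 6.26 to 7.65 FPKM with DMSO and 7.68 to 8.3 with CuB, and did not pass (0.17, adjusted p = 0.188). The J-domain genes DNAJB9 and DNAJC3 overlapped, with log2 fold changes of 0.21 and 0.10 that did not pass.

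SDF2L1, MANF and CRELD2 are small secretory-pathway proteins known as strongly induced targets of the unfolded protein response. SDF2L1 measured 11.32, 20.17 and 9.44 FPKM with DMSO and 10.02, 14.86 and 14.67 with CuB. DMSO replicate 2 alone exceeded every CuB value, and the interval of the log2 fold change of 0.00 ran from -0.65 to 0.65, the widest of the 38. MANF, at 24.11, 32.09 and 23.52 FPKM with DMSO and 26.15, 26.66 and 27.08 with CuB, had a log2 fold change of 0.02. CRELD2, at 3.68 to 4.91 FPKM with DMSO and 3.18 to 5.05 with CuB, had one of 0.00. Over the 10 chaperones the median log2 fold change was 0.14, with 9 of 10 above 0 and 1 passing, beside 55.1% of all tested genes above 0. The sign count depended on the scaling and on single libraries. With equal fragment totals 5 of 10 were above 0, beside 42% of all tested genes. With the correction for GC content described below 6 of 10 were, beside 50.3%. With 1 library left out the count ran from 6 to 9 of 10, beside 54.7% to 55.5% of all tested genes.

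Among the disulfide genes the 1 that passed was ERO1B (ENSG00000086619, chromosome 1, 236215555 to 236281985, minus strand), an oxidase that recharges disulfide isomerases and is best known from secretory tissues. ERO1B measured 11.33, 9.13 and 12.21 FPKM with DMSO and 4.98, 3.81 and 4.14 with CuB. Every CuB library lay below every DMSO library, on 801 to 1022 fragments with DMSO and 304 to 378 with CuB. The mean fell from 10.9 ± 1.59 to 4.31 ± 0.600 FPKM (SD, n = 3 each), 2.53 times lower, or -1.16 on the log2 scale (SE 0.133, adjusted p = 0.00079).

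Its paralogue ERO1A, the broadly expressed form, showed 11.48, 10 and 11.69 FPKM with DMSO and 11.99, 10.43 and 10.15 with CuB, a log2 fold change of -0.02. The groups of ERO1A overlapped, and the test was not passed (adjusted p = 0.866). Of the isomerases, PDIA4 (ERp72) lay lower without overlap, at 86.26, 89.69 and 89.74 FPKM with DMSO and 73.22, 79.2 and 81.09 with CuB, and did not pass (-0.19, adjusted p = 0.0783). P4HB, the archetypal protein disulfide isomerase, overlapped at 63.39 to 79.99 FPKM with DMSO and 72.78 to 90.92 with CuB (0.25, adjusted p = 0.144). PDIA3, the isomerase that works with calnexin, and PDIA6 had log2 fold changes of -0.08 and -0.01. PDIA3 has a processed copy, PDIA3P1, whose fragments came to 5.09% of its own, so reads could be split between them.

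The ERAD genes held the largest difference of the 38. HERPUD1 (ENSG00000051108, chromosome 16, 56932048 to 56944863, plus strand) encodes HERP, a ubiquitin-like membrane protein of the HRD1 ubiquitin ligase complex. HERPUD1 measured 8.49, 8.01 and 8.81 FPKM with DMSO and 34.99, 30.84 and 27.95 with CuB. The lowest CuB value was over 3 times the highest DMSO value, on 672 to 709 fragments with DMSO and 2154 to 2556 with CuB. The mean rose 3.70-fold, from 8.44 ± 0.403 to 31.3 ± 3.54 FPKM (SD, n = 3 each), or 1.77 on the log2 scale (SE 0.101, adjusted p = 3.73e-05). HERPUD1 ranked 31 of 39 by mean FPKM with DMSO and 12 with CuB.

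SELENOS (ENSG00000131871, chromosome 15, 101270817 to 101277500, minus strand) encodes a selenoprotein, VIMP, that anchors the p97 ATPase to the retrotranslocation complex. SELENOS measured 8.49, 8.81 and 7.59 FPKM with DMSO and 13.89, 12.74 and 12.06 with CuB. The groups did not overlap, and the mean rose from 8.30 ± 0.634 to 12.9 ± 0.923 FPKM (log2 fold change 0.58, SE 0.0925, adjusted p = 0.00318).

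EDEM3 (ENSG00000116406, chromosome 1, 184690231 to 184754913, minus strand) encodes a mannosidase that trims glycans of misfolded glycoproteins. EDEM3 measured 25.9, 21.48 and 26.6 FPKM with DMSO and 19.38, 19.08 and 17.19 with CuB. The CuB values were all lower, and the mean fell from 24.7 ± 2.77 to 18.6 ± 1.19 FPKM (log2 fold change -0.39, SE 0.105, adjusted p = 0.0251). The call ended without DMSO replicate 1 (adjusted p = 0.0956), DMSO replicate 3 (0.0810), CuB replicate 2 (0.0729) or CuB replicate 3 (0.0835). Its relatives EDEM1, at 20.81 to 25.56 FPKM with DMSO and 18.98 to 22.73 with CuB, and EDEM2 overlapped, with log2 fold changes of -0.18 and -0.16 that did not pass.

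The core of the HRD1 ligase did not pass the test. SYVN1, which encodes the ligase HRD1 itself, measured 10.93, 13.86 and 9.8 FPKM with DMSO and 12.46, 12.93 and 13.81 with CuB (0.18, adjusted p = 0.307). SEL1L, its scaffold, had a log2 fold change of -0.13, and OS9, a lectin that hands substrates to it, one of -0.14. Of the derlins, channel components of retrotranslocation, DERL1 lay lower without overlap, at 9.5 to 9.92 FPKM with DMSO and 7.88 to 8.85 with CuB, and did not pass (-0.20, adjusted p = 0.0876). DERL2 overlapped (0.05, adjusted p = 0.691). DERL3 had 2 fragments over all 6 libraries and was not tested. Most of its exon bases, 77.0%, lie opposite SMARCB1. The exons of SYVN1 share 398 bases with FAU on the same strand, a gene at 82.9 to 125.5 FPKM with DMSO and 90.15 to 109.8 with CuB. The part of those shared bases in the level of SYVN1 was not tested.

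Of the 7 translocation genes SRPRB passed. SRPRB (ENSG00000144867, chromosome 3, 133784033 to 133825772, plus strand) encodes the membrane-anchored beta subunit of the receptor for the signal recognition particle. SRPRB measured 14.04, 11.76 and 13.64 FPKM with DMSO and 18.57, 17.24 and 15.47 with CuB. The groups did not overlap, and the mean rose from 13.1 ± 1.22 to 17.1 ± 1.55 FPKM (log2 fold change 0.36, SE 0.104, adjusted p = 0.0334). The call ended without any 1 of 5 libraries, namely DMSO replicate 1 (adjusted p = 0.0628), DMSO replicate 2 (0.0516), DMSO replicate 3 (0.0643), CuB replicate 1 (0.0913) or CuB replicate 2 (0.110). The exons of SRPRB share 381 bases with RAB6B on the opposite strand, and the labels do not say that counting used strand, so reads there cannot be assigned.

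The channel itself differed little. SEC61A1, the pore subunit, measured 76.92, 80.52 and 75.91 FPKM with DMSO and 71.02, 80.26 and 78.76 with CuB (-0.02, adjusted p = 0.844). The small subunits SEC61B and SEC61G overlapped, with log2 fold changes of 0.20 and -0.20. SEC62 and SEC63, which serve post-translational import, had log2 fold changes of -0.07 and 0.05. SSR1, a subunit of the translocon-associated protein complex, measured 12.36, 9.95 and 12.67 FPKM with DMSO and 10.35, 8.9 and 8.86 with CuB. Its CuB replicate 1 lay above DMSO replicate 2, and it did not pass (-0.28, adjusted p = 0.0935). The summed FPKM of the 7 genes was 175.6 ± 2.75 with DMSO and 175.6 ± 0.423 with CuB, but with equal fragment totals 186.3 ± 2.71 and 166.1 ± 1.02.

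Among the 5 genes of export, retrieval and ER-phagy, 1 rose and 1 fell. SEC24D (ENSG00000150961, chromosome 4, 118722823 to 118838683, minus strand) is a cargo-binding subunit of the COPII coat. SEC24D measured 3.56, 3.22 and 4.2 FPKM with DMSO and 6.99, 6.13 and 5.74 with CuB. The groups did not overlap, on 523 to 650 fragments with DMSO and 852 to 983 with CuB. The mean rose from 3.66 ± 0.496 to 6.29 ± 0.639 FPKM (log2 fold change 0.65, SE 0.114, adjusted p = 0.00472), 1.72 times higher on the FPKM scale. SEC23B, the partner subunit of the coat, measured 29.58 to 29.88 FPKM with DMSO and 33.07 to 34.23 with CuB, and did not pass (0.17, adjusted p = 0.0790).

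KDELR3 (ENSG00000100196, chromosome 22, 38468062 to 38483447, plus strand) is one of the receptors that return chaperones carrying the KDEL signal from the Golgi. KDELR3 measured 9.52, 8.61 and 9.33 FPKM with DMSO and 4.94, 5.54 and 5.27 with CuB. Every CuB value was lower, and the mean fell from 9.16 ± 0.480 to 5.25 ± 0.301 FPKM (log2 fold change -0.70, SE 0.0836, adjusted p = 0.00097). Summed over the 6 libraries its reads were the fewest of any tested member, with 272 to 282 fragments with DMSO and 135 to 159 with CuB. KDELR2 overlapped, at 45.1 to 51.98 FPKM with DMSO and 37.97 to 47.03 with CuB (-0.23, adjusted p = 0.131). Its exons share 376 bases with DAGLB on the same strand, a gene at 4.10 to 5.55 FPKM with DMSO and 9.88 to 11.2 with CuB. The part of those shared bases in the level of KDELR2, and in the ratio built on it below, was not tested. KDELR1, the remaining receptor and not one of the 39 genes, fell from 43.3 ± 2.42 to 34.4 ± 1.23 FPKM (-0.32, adjusted p = 0.0155), a call that ended without CuB replicate 2 (0.0772) and with the replicate number as a block (0.0542). The stretch before the start of KDELR3 holds the UPRE core in reverse.
KDELR3, UPRE core in reverse, chr22:38468045-38468062, plus strand: cctggCCACGTCAccgcc

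CCPG1, an ER-phagy receptor, had 1.88 to 2.6 FPKM with DMSO and 1.72 to 2.61 with CuB (-0.08, adjusted p = 0.686). For each of the 30 members that did not pass, the 95% interval of the difference in log2(FPKM + 1) lay within 2-fold, and for 29 within 1.5-fold, SDF2L1 being the exception. These counts hold for that scale and the deposited scaling only. In FPKM itself the intervals are wider, most so for low genes such as CCPG1.

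**Figure D2:**
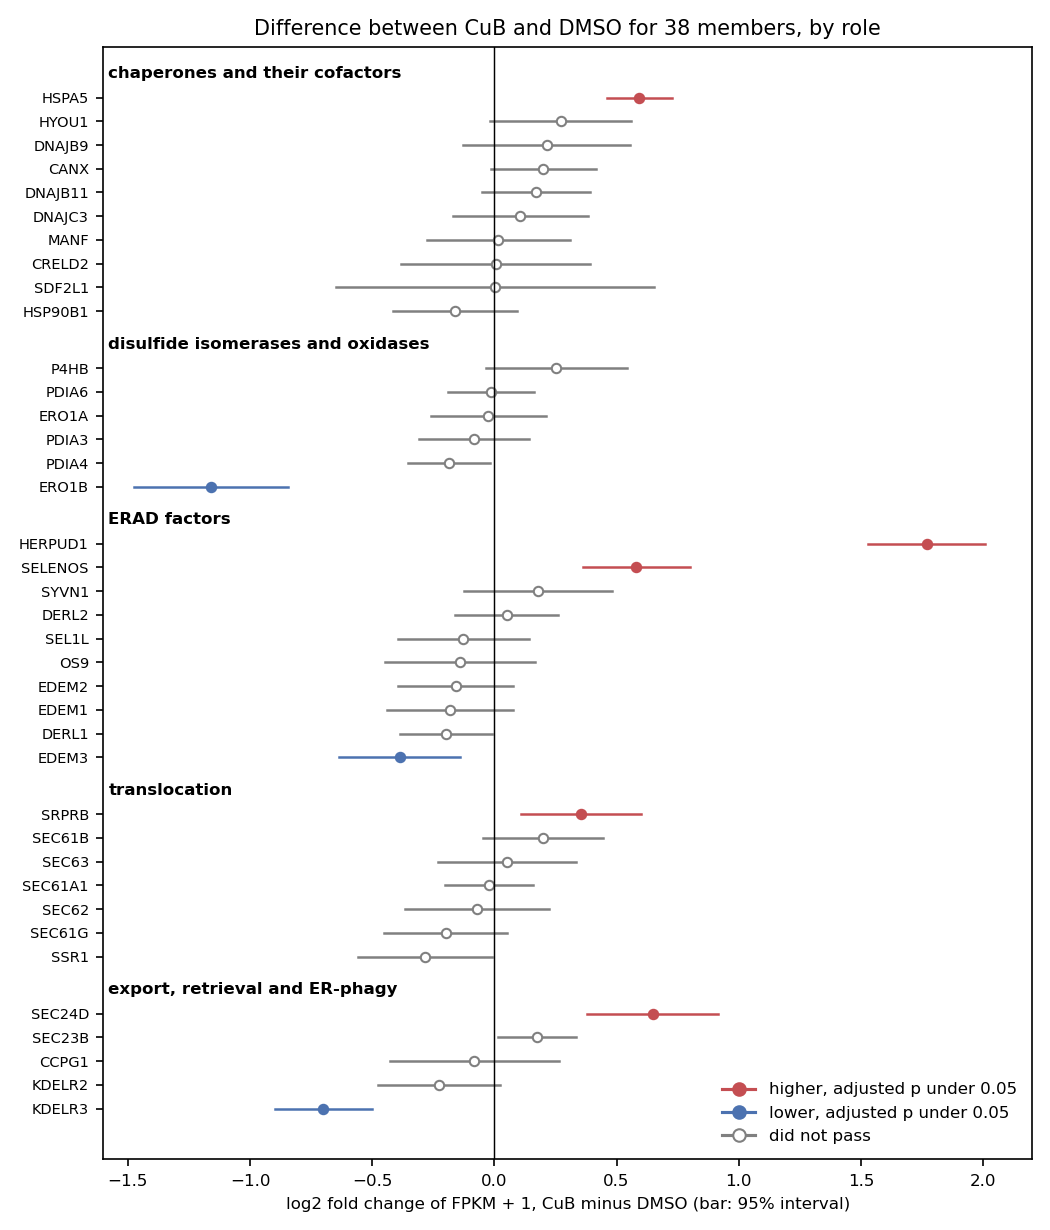
Log2 fold change of FPKM + 1, CuB minus DMSO, for the 38 tested members grouped by role, with bars for the 95% interval of limma's fit (n = 3 each); filled points passed the test. HERPUD1 at 1.77 and ERO1B at -1.16 lie farthest from 0, and 32 of the 38 lie within 0.5 of it.

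Ratios of 2 genes within a library do not depend on how that library was scaled, but their level depends on the gene lengths used. The 7 pairs below, paralogues and the most abundant chaperones among the members, were chosen after their values were seen. CALR, an ER chaperone outside the members, averaged 246.3 FPKM with DMSO and 301.1 with CuB, above HSPA5 in both groups. An exact permutation test of 3 against 3 cannot go below p = 0.1 (two-sided). HSPA5 over HSP90B1 was 0.733, 0.860 and 0.690 with DMSO and 1.19, 1.32 and 1.34 with CuB. By FPKM, the order of these 2 chaperones was thus the reverse in every CuB library of that in every DMSO library (means 0.761 ± 0.0887 and 1.28 ± 0.0811). This order rests on gene lengths of 3908 bases for HSPA5 and 4695 for HSP90B1. Before division by length, CuB replicate 1 held fewer fragments of HSPA5 (15886) than of HSP90B1 (16060). CuB replicates 2 and 3 held more of HSPA5 (16493 and 16280) than of HSP90B1 (15029 and 14625).

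ERO1B over ERO1A was 0.987, 0.912 and 1.04 with DMSO and 0.415, 0.366 and 0.408 with CuB. The 2 oxidases were near equal in FPKM with DMSO, and ERO1B was the lower in each CuB library. KDELR3 over KDELR2 was 0.197, 0.191 and 0.180 with DMSO and 0.105, 0.141 and 0.139 with CuB. DERL1 over DERL2 lay at 1.33 to 1.55 with DMSO and 1.06 to 1.29 with CuB. EDEM3 over EDEM1 lay at 1.03 to 1.10 with DMSO and 0.852 to 0.975 with CuB. These 5 ratios did not overlap between groups, each at the smallest p the exact test allows, 0.1, or 0.14 after adjustment over the 7. Of all tested genes taken singly, 51.5% did not overlap, and the share over other gene pairs was not computed. HSPA5, ERO1B, KDELR3 and EDEM3 had passed limma's test on the same values, so the ratios that hold them are no separate evidence. EDEM2 over EDEM1 (exact p = 1) and EDEM3 over EDEM2 (exact p = 0.4, 0.467 adjusted) overlapped.

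**Figure D3:**
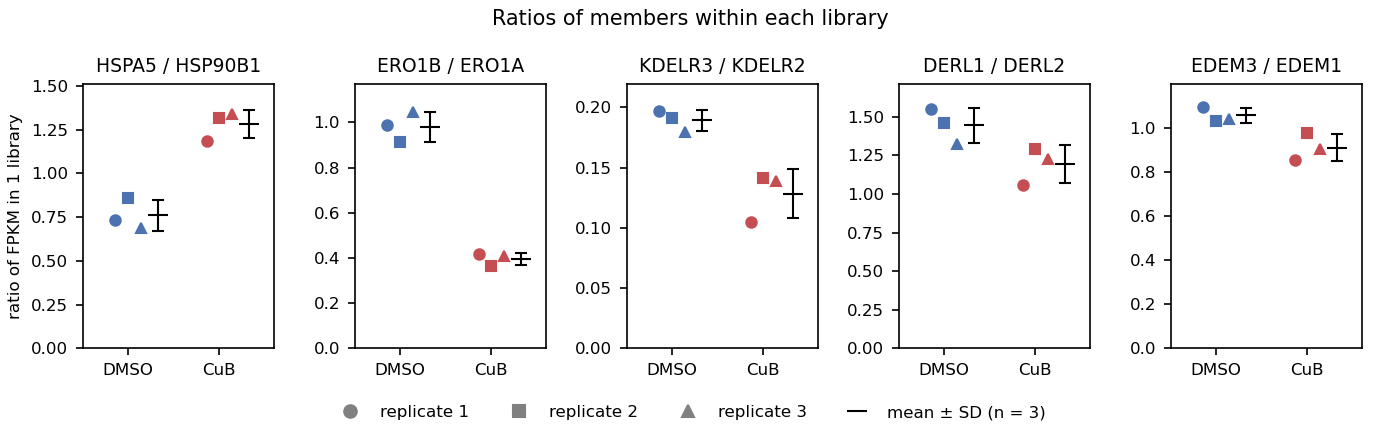
Ratio of the FPKM of 2 members within each library, for the 5 pairs whose groups did not overlap, with 1 point per library and the mean ± SD (n = 3); each axis starts at 0. HSPA5 over HSP90B1 goes from below 1 to above 1, and the other 4 ratios are lower in every CuB library.

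As a share of the summed FPKM of the 39 genes, HSPA5 took 13.2%, 13.4% and 13.0% with DMSO and 18.5%, 18.7% and 18.6% with CuB. The sum itself was 1423 ± 39.2 FPKM with DMSO and 1522 ± 25.4 with CuB (SD, n = 3 each), and this order rests on the deposited scaling: with equal fragment totals it was 1510 ± 38.9 and 1440 ± 14.2. The chaperones summed to 683 ± 31.0 FPKM with DMSO and 782.7 ± 24.2 with CuB, and with equal totals to 724.5 ± 31.6 and 740.1 ± 17.4. The disulfide genes summed to 330.0 ± 3.27 FPKM with DMSO and 320.4 ± 10.7 with CuB. Their libraries overlapped, at 327.3 to 333.6 with DMSO and 308.1 to 327.7 with CuB. The order of these disulfide means held with equal totals (350.1 ± 3.16 and 303.1 ± 12.4). The ERAD genes summed to 141.2 ± 0.387 with DMSO and 155.0 ± 5.10 with CuB, an order that turned with equal totals (149.8 ± 0.530 and 146.6 ± 3.89).

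The GC content of the transcripts ran through the spread of the DMSO group. Of the 19 members with GC above their median of 46.0%, DMSO replicate 2 was the highest DMSO library in 12 and the lowest in 6, and of the 19 at or below it the lowest in 16 and the highest in 0. Across the 38 genes the shift of DMSO replicate 2 from the other DMSO libraries correlated with GC at r = 0.875, whereas the CuB minus DMSO difference did so at r = 0.202. Genes are not independent replicates, so both values are descriptions.

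**Figure D4:**
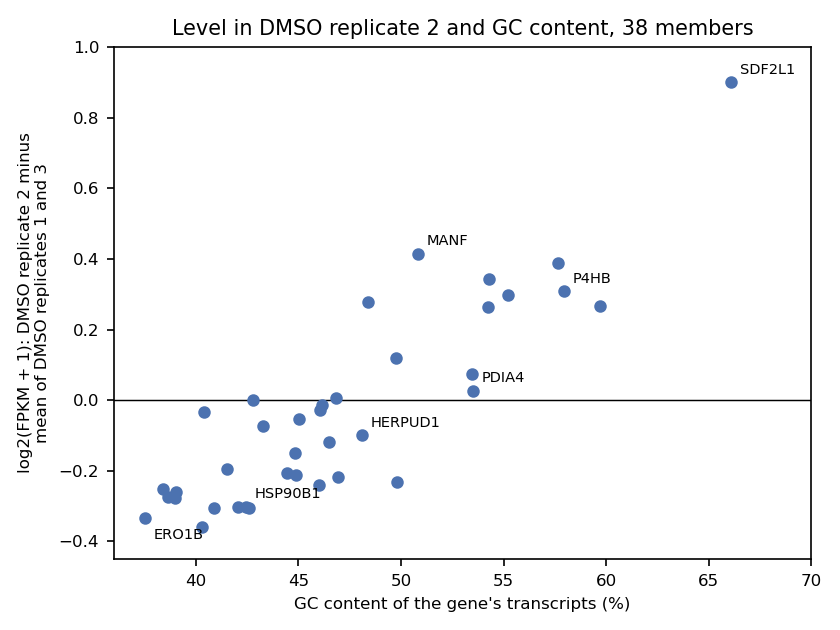
Difference in log2(FPKM + 1) between DMSO replicate 2 and the mean of DMSO replicates 1 and 3, against the GC content of the transcripts in percent, with 1 point for each of the 38 tested members. GC-rich genes such as SDF2L1 (GC 66.1%) lie above 0 and GC-poor genes such as ERO1B below it, with r = 0.875.

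After a lowess curve on GC was removed from each library, 9 members were called higher and 10 lower, beside 58.4% of all tested genes. The 8 calls above were among them. The additional higher genes were HYOU1 (0.22, adjusted p = 0.0142), CANX (0.16, 0.0101), P4HB (0.18, 0.0113) and SEC23B (0.14, 0.0289). The additional lower genes were HSP90B1 (-0.22, 0.00409), PDIA4 (-0.24, 0.00440), KDELR2 (-0.27, 0.00584), EDEM2 (-0.21, 0.00955), SEL1L (-0.19, 0.0146), SSR1 (-0.34, 0.000914) and DERL1 (-0.24, 0.0276). The correction also removes any difference between CuB and DMSO that follows GC, and it raised the share called across the table.

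Without DMSO replicate 2, 8 members were higher and 5 lower, 34.2% of those tested, beside 43.4% of all tested genes. HYOU1 (adjusted p = 0.0314), P4HB (0.0341), SEC61B (0.0264) and SYVN1 (0.0303) joined the higher genes, HSP90B1 (0.0438) and SSR1 (0.0182) joined the lower, and SRPRB dropped out. Without CuB replicate 1, KDELR2 passed as lower (adjusted p = 0.0438) and SRPRB did not pass.

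The deposited scaling also bears on the counts. The FPKM values imply library sizes of 1.03 to 1.04 times the fragment total with DMSO and of 0.914 to 0.927 times that total with CuB. With equal fragment totals in place of that scaling, the median over all tested genes moved by -0.14 on the log2 scale, and 4 members were called higher and 11 lower, 39.5% of those tested, beside 38.8% of all tested genes. Across all tested genes the split went from 3046 higher and 2072 lower to 2022 and 3128. HSPA5, HERPUD1, SELENOS and SEC24D were higher, and ERO1B, KDELR3 and EDEM3 lower, under both scalings. SRPRB was no longer called (adjusted p = 0.161). The 8 members called lower only with equal totals among these 2 scalings were SSR1 (-0.44, adjusted p = 0.0220), KDELR2 (-0.39, 0.0222), SEC61G (-0.36, 0.0339), PDIA4 (-0.35, 0.00935), DERL1 (-0.35, 0.0139), EDEM1 (-0.34, 0.0399), HSP90B1 (-0.33, 0.0451) and EDEM2 (-0.31, 0.0450), each value holding the shift of the median.

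The other genes of the same compartment, 157 from fixed lists of which 152 were tested, gave 20 higher and 19 lower calls, 25.7% of those tested. Of all tested genes 38.6% were called, 22.9% higher and 15.6% lower. Other chaperones and glycoprotein folding genes had 0 higher and 4 lower of 22 by limma (18.2% called). An unadjusted p under 0.05 in that test was reached by 7 of the 22, beside 6422 of all 13273 tested genes. The groups did not overlap for 9 of the 22, 4 higher and 5 lower with CuB. CALR was one of the 4 higher and did not pass (0.29, adjusted p = 0.0503). Other ERAD factors had 9 higher and 4 lower of 32 (40.6%), and other genes of export, retrieval and ER-phagy 6 higher and 7 lower of 39 (33.3%). Other translocation and glycosylation genes had 3 higher and 2 lower of 40 (12.5%), and other disulfide genes 2 higher and 2 lower of 19 (21.1%). Of the largest calls in each direction, 8 held under each alternative in which the gene was tested. SEC16A, the scaffold of ER exit sites, rose from 18.3 ± 1.75 to 30.7 ± 1.57 FPKM (0.72, adjusted p = 0.00144), and SEC24A, a COPII relative of SEC24D, from 17.5 ± 2.61 to 27.9 ± 4.09 (0.65, adjusted p = 0.0126). RHBDD1, an intramembrane protease of ERAD, rose from 2.72 ± 0.102 to 4.62 ± 0.458 FPKM (0.59, adjusted p = 0.00335). RETREG1, the ER-phagy receptor FAM134B, fell from 7.59 ± 0.908 to 2.59 ± 0.577 FPKM (-1.27, adjusted p = 0.000741), and CALCOCO1, another ER-phagy receptor, from 5.75 ± 0.765 to 2.58 ± 0.295 (-0.91, adjusted p = 0.00127). TMX4, a membrane thioredoxin, fell from 41.5 ± 3.69 to 24.1 ± 1.87 FPKM (-0.76, adjusted p = 0.00136). CNPY4 (-0.81, adjusted p = 0.00947) and CRELD1 (-0.78, adjusted p = 0.00161), a relative of CRELD2, also fell. ERP29, TXNDC11, UBE2J2, EMC8 and SRP68 among the higher genes, and GPX7, FAM8A1, JKAMP, CAMLG and SPCS1 among the lower, lost their call under at least 1 alternative.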

How the data were processed

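PolyA RNA of 6 A375 libraries, 3 with DMSO and 3 with CuB, was measured as FPKM in 1 deposited table of 58735 genes, with coordinates on GRCh38 per the submitters' processing notes and gene identities of GENCODE 29. For the aligner, the counter and the library scaling, no name is given in the sources used here. FPKM times gene length gave whole fragments for 100% of values in each library (tolerance 0.01), which gave the depths above.

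Genes averaging at least 1 FPKM over the 6 libraries were tested with limma 3.58.1 in R 4.3.3 on log2(FPKM + 1) with an intensity trend, no covariate and 4 residual degrees of freedom. Alternatives changed the pseudocount, filter, scaling, variance model, replicate block, GC content (lowess, span 0.3) or left out a library. Scripts were tested on simulated data. GC content was known for 13265 tested genes and MARCH6 was matched by gene ID. Genes outside the 39 were named by a rule of the 2 largest rises and 2 largest falls per list among calls without overlap, plus close paralogues. The members and lists were chosen with earlier results of these data known.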

Additional observations from a re-analysis of the deposited data

How the results depend on the processing

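Under all 20 alternatives HSPA5, HERPUD1, SELENOS, ERO1B and KDELR3 kept their call and direction, as did SEC24D in the 19 that tested it. SRPRB lost its call in 11 and EDEM3 in 6. Members called higher numbered 9 with the GC correction, 8 with GC correction and replicate block, and 4 to 8 with 1 library left out. Members called lower numbered 7 with equal FPKM sums (TPM), 5 with median of ratios, 11 with equal fragment totals and 11 with quantile normalization. They numbered 10 with GC correction, 11 with GC correction and replicate block, and 2 to 5 with 1 library left out. In either direction, 28.9% of the tested members were called with TPM, 23.7% with median of ratios and 39.5% with equal totals or quantile. The share was 50% with GC correction, with or without the block, and 15.8% to 34.2% with 1 library left out. All tested genes called numbered 3250 at a minimum mean of 5 FPKM, 7743 with GC correction, and 3262 to 5755 with 1 library left out. As shares of the genes tested these were 42.1%, 58.4% and 24.6% to 43.4%, beside 38.6% in the main test. The share of all tested genes was 14.1% with no filter, 37.5% with TPM and 37.4% with median of ratios. It was 38.8% with equal totals, 35.8% with quantile and 55.5% with GC correction and replicate block. The split went from 3046 higher and 2072 lower to 2323 and 2653 (TPM), 2546 and 2416 (median of ratios) and 2239 and 2515 (quantile). Other ER genes called higher numbered 12 with no filter, 10 with TPM, 12 with median of ratios, 6 with equal totals, 6 with quantile, 31 with GC correction and 7 to 30 with 1 library left out; those called lower numbered 39 with equal totals, 38 with quantile, 52 with GC correction, 45 with GC correction and replicate block, and 8 to 26 with 1 library left out.

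Residuals of same-numbered libraries correlated at 0.269, 0.119 and -0.357. The residuals also followed GC content, so these values cannot tell whether the replicate numbers pair the libraries. With the replicate block 4 members were higher and 2 lower (EDEM3, adjusted p = 0.0530, and SRPRB, 0.0581, lost), 15.8% of those tested beside 33.5% of all tested genes, and other ER genes numbered 12 higher and 12 lower. The cause of these moves was not tested.

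Of the members that did not pass, some log2 fold changes near 0 reversed in sign, with no reversed value passing: CANX (quantile -0.0074), SEC23B (quantile -0.039), CRELD2 (GC -0.071, with block -0.071, equal totals -0.13, median of ratios -0.051, quantile -0.028, TPM -0.078), DERL2 (GC -0.0056, with block -0.0056, equal totals -0.095, median of ratios -0.012, quantile -0.0605, TPM -0.041), DNAJC3 (equal totals -0.053, quantile -0.075), MANF (GC -0.031, with block -0.031, equal totals -0.14, median of ratios -0.051, quantile -0.17, TPM -0.083), SDF2L1 (GC -0.043, with block -0.043, equal totals -0.15, median of ratios -0.062, quantile -0.15, TPM -0.093) and SEC63 (equal totals -0.10, median of ratios -0.014, quantile -0.094, TPM -0.045). With 1 library left out the ranges were -0.015 to 0.18 for DNAJC3, -0.21 to 0.30 for SDF2L1, -0.061 to 0.15 for MANF, -0.099 to 0.17 for CRELD2, -0.048 to 0.039 for PDIA6, -0.092 to 0.018 for ERO1A, -0.055 to 0.032 for SEC61A1, -0.040 to 0.11 for SEC63, -0.20 to 0.0083 for CCPG1 and -0.11 to 0.19 for the log2 ratio of EDEM2 to EDEM1. The thinnest library of a tested member held 135 fragments (KDELR3), and 3 libraries a group limit the precision.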
